A study of Mus musculus with 12 samples.

Results

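The genes described here were 8 genes that mark resident or alternatively activated macrophages, measured in epididymal white adipose tissue (eWAT), the fat pad beside the epididymis. They were chosen by name, as Mrc1, Cd163, Lyve1, Folr2, Clec10a, Retnla, Arg1 and Chil3, and all 8 were found among the 22947 genes of the table. RNA was sequenced from 12 male C57BL/6J mice, 3 in each of 4 groups. All mice were 21 weeks old and had eaten their diet for 16 weeks, from 5 weeks of age. The ND group ate a normal diet and the HFD group a high-fat diet. The CLE group ate the high-fat diet with 1.5% (w/w) of an ethanol extract of chrysanthemum leaf. The LU group ate the high-fat diet with 0.003% (w/w) luteolin, a flavonoid found in chrysanthemum. The 3 mice of a group were picked by the study as representative of a larger group, so they are not a random draw from it, and each library came from 1 mouse.

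Macrophages of lean fat take up dead cells, iron, hyaluronan and glycoproteins through a set of scavenger and lectin receptors, and many of these resident cells carry Mrc1, Cd163, Lyve1 and Folr2. Interleukin 4 and interleukin 13, made largely by type 2 lymphoid cells and eosinophils, act through the transcription factor STAT6 and raise another set of genes known as the alternative activation program, among them Mrc1, Clec10a, Retnla, Arg1 and Chil3. In obese fat a further population of macrophages gathers around dying adipocytes, takes up their lipid and carries Trem2, Gpnmb and Itgax. Because marker genes of these states overlap, each of the 8 genes was followed on its own.

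Values are FPKM, sequenced fragments scaled to the length of the transcript and the size of the library, so levels are per length and can be set side by side between genes. Changes are log2 fold changes of FPKM + 1 with their SE, from 1 limma fit over all 12 libraries. A gene was called when its Benjamini-Hochberg adjusted p-value over the 12775 genes tested was under 0.05 and its fold change was over 1.5. An exact permutation test of 3 mice against 3 cannot give a p below 0.1. The total over genes was 435095 to 455040 FPKM per library. The adipocyte gene Adipoq was between 1107 and 2292 FPKM in every library, and the pan-macrophage gene Csf1r between 21.0 and 149 FPKM. A letter R stands in the label of 4 libraries (ND 3, ND 4, CLE 4 and LU 2) and in no HFD label, and the column headers of the same 4 libraries alone also share a number that reads as a date. The letter was followed as a label, and its meaning is not given in the sources used here.

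The 8 genes spanned nearly the whole range of expression in eWAT. Averaged over the 12 libraries, Retnla stood at percentile 99.5 of the genes tested, Folr2 at 87.8, Clec10a at 83.0, Mrc1 at 81.6, Cd163 at 68.2 and Lyve1 at 42.7. Chil3 and Arg1 were far lower, at percentiles 8.62 and 2.79. The other 6 genes were at 1 FPKM or more in all 12 libraries. Arg1 reached 1 FPKM in 5 libraries, 3 HFD and 2 LU, and Chil3 in 6 libraries, 3 HFD, 1 CLE and 2 LU. Arg1 therefore passed the filter on low values only with its HFD libraries, the group in which it was high. Chil3 would also have reached the 3 libraries of the filter through CLE and LU.

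**Figure D1:**
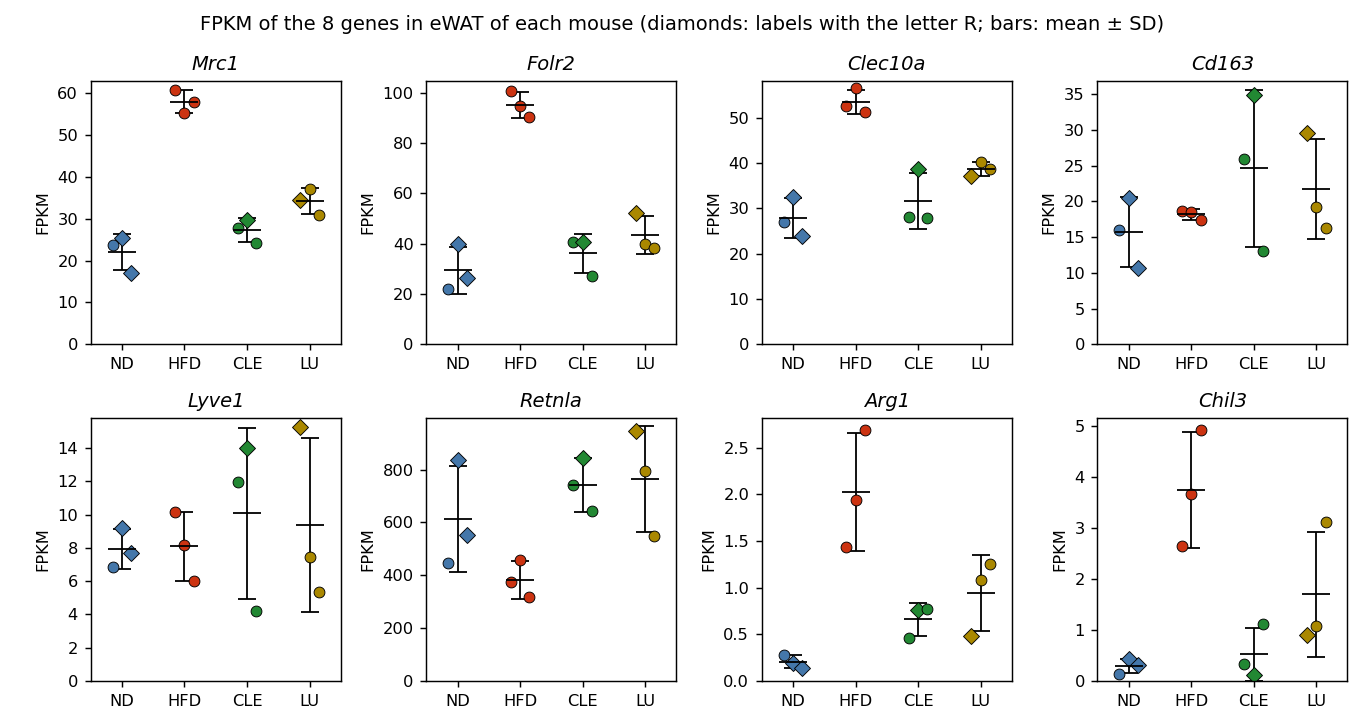
FPKM of each of the 8 genes (y axis, linear, from 0) in the 3 mice of each group (x axis). Points are mice, diamonds are libraries whose label carries the letter R, and bars show the mean and SD. The HFD points of Mrc1, Folr2, Clec10a, Arg1 and Chil3 lie above all ND and CLE points, while those of Cd163 and Lyve1 lie among them.

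The first question is how the high-fat diet itself changed these genes. In HFD compared to ND, 5 of the 8 genes rose (Mrc1, Folr2, Clec10a, Arg1 and Chil3), 1 was called lower (Retnla), and Cd163 and Lyve1 were not called. Over all genes tested, 14.9% were called higher and 10.8% lower in the same comparison. Arg1 entered the test only through its HFD libraries, so its place in the count is not separate support. With a filter on a mean of 5 FPKM, which removed Arg1 and Chil3, 3 genes were called higher. The 5 genes that rose were also those in which the HFD and ND mice did not overlap, which held for 30.2% of all genes in that direction. In bulk tissue, a change in the number of cells of a type and a change in RNA per cell cannot be told apart.

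Mrc1, the mannose receptor CD206 that internalizes glycoproteins, lies on chromosome 2 (GRCm38, chr2:14229392-14332057, plus strand). It was at 23.8, 25.4 and 17.1 FPKM in ND mice 2, 3 and 4 and at 60.8, 55.4 and 58.0 FPKM in HFD mice 12, 15 and 18. In CLE mice 2, 4 and 11 it was at 27.8, 29.8 and 24.1 FPKM, and in LU mice 2, 3 and 8 at 34.4, 37.2 and 31.0 FPKM. Every HFD mouse was above every mouse of the other groups, and the LU mice lay above the CLE mice and above the ND mice. The log2 fold change was 1.37 ± 0.14 (SE) in HFD compared to ND (limma adjusted p = 1.14e-05), -1.07 ± 0.14 in CLE compared to HFD (adjusted p = 0.000162) and -0.75 ± 0.14 in LU compared to HFD (adjusted p = 0.00249). Of the summed FPKM of Mrc1, 56.0% came from transcripts the authors assembled as new splice forms of the gene. The FPKM given to single forms differed between the ND and HFD mice. Such values depend on how the FPKM of a gene is divided among its similar forms, and no form was tested. The form starting at chr2:14316215 was at 8.76, 8.47 and 7.61 FPKM in ND and at 3.36e-08 FPKM or less in HFD. In CLE it was at 8.35, 6.20 and 6.53 FPKM, and in LU at 2.76, 9.75 and 7.84 FPKM. An assembled form from chr2:14229321 to chr2:14330519 was at 0.438, 0.637 and 0.723 FPKM in ND and at 13.5, 10.6 and 15.8 FPKM in HFD. An annotated form with the same end went the other way, at 1.78, 0.558 and 1.38 FPKM in ND and at 2.04e-135 FPKM or less in HFD.

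Folr2, the folate receptor beta of macrophages, lies on chromosome 7 (chr7:101839988-101857194, minus strand). It was at 22.1, 39.8 and 26.3 FPKM in the ND mice and at 101, 94.8 and 90.5 FPKM in the HFD mice. It was at 40.6, 40.6 and 27.2 FPKM with CLE and at 52.2, 39.9 and 38.3 FPKM with LU. The HFD mice stood apart from all others, and the ND, CLE and LU mice overlapped. Folr2 rose by 1.70 ± 0.21 on the log2 scale in HFD compared to ND (limma adjusted p = 5.28e-05). It fell by 1.40 ± 0.21 with CLE (adjusted p = 0.000468) and by 1.13 ± 0.21 with LU (adjusted p = 0.00278), each compared to the same 3 HFD mice. The annotation places the antisense gene Gm10602 over part of Folr2, and the sources used here do not say that counting used strand, so reads from the overlap cannot be told apart.

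Clec10a, the macrophage lectin MGL1, lies on chromosome 11 (chr11:70156197-70170834, plus strand). Its FPKM was 27.1, 32.6 and 24.0 in ND, 52.7, 56.5 and 51.4 in HFD, 28.2, 38.7 and 27.8 in CLE, and 37.1, 40.2 and 38.7 in LU. The HFD mice were again above all others, with little spread within HFD or LU. Clec10a rose by 0.93 ± 0.13 in HFD compared to ND (limma adjusted p = 0.000179) and fell by 0.76 ± 0.13 with CLE (adjusted p = 0.00136). With LU the difference was -0.46 ± 0.13 (adjusted p = 0.0270), under the fold limit, so it was not called although the LU and HFD mice did not overlap.

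Mgl2, the neighbouring paralog of Clec10a and an interleukin 4 target, was given separately because reads of such similar genes may be divided between them in counting. Its FPKM was 16.4, 17.96 and 13.3 in ND, 17.5, 18.2 and 16.5 in HFD, 20.0, 20.8 and 17.9 in CLE, and 27.6, 22.8 and 16.2 in LU. All 4 groups overlapped, and Mgl2 was not called in any of the 6 comparisons (HFD compared to ND 0.13, adjusted p = 0.522).

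Cd163 and Lyve1 are the receptors most often used to mark resident cells. Cd163, the scavenger receptor for haptoglobin-bound hemoglobin, lies on chromosome 6 (chr6:124304656-124330527, plus strand). It was at 16.1, 20.5 and 10.7 FPKM in ND and at 18.7, 18.5 and 17.4 FPKM in HFD. It was at 25.9, 34.9 and 13.03 FPKM in CLE and at 29.6, 19.3 and 16.3 FPKM in LU. The HFD values lay inside the range of each of the other groups, and the widest range was that of CLE. Cd163 differed by 0.24 ± 0.32 in HFD compared to ND (95% interval -0.47 to 0.95, limma adjusted p = 0.562), by 0.31 ± 0.32 in CLE compared to HFD (-0.39 to 1.02, adjusted p = 0.488) and by 0.20 ± 0.32 in LU compared to HFD (-0.51 to 0.91, adjusted p = 0.680). These intervals hold fold changes past 1.5 in at least 1 direction, so the data do not show that Cd163 kept its level.

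Lyve1, a hyaluronan receptor of perivascular macrophages and of lymphatic vessels, lies on chromosome 7 (chr7:110850607-110863239, minus strand). It was at 6.87, 9.22 and 7.71 FPKM in ND, at 10.1, 8.16 and 6.01 FPKM in HFD, at 12.0, 14.0 and 4.23 FPKM in CLE and at 15.3, 7.44 and 5.37 FPKM in LU. All groups overlapped. The difference was 0.01 ± 0.39 in HFD compared to ND (95% interval -0.85 to 0.87, limma adjusted p = 0.985), 0.17 ± 0.39 in CLE (-0.70 to 1.03, adjusted p = 0.777) and 0.10 ± 0.39 in LU (-0.77 to 0.96, adjusted p = 0.878), both compared to HFD. Among mice of the same group, Lyve1 and Cd163 varied more than nearly all genes, with a residual SD of 0.57 and 0.46 on the log2 scale, at percentiles 98.8 and 97.9 of the genes tested. For Mrc1 and Clec10a the residual SD was 0.18 each.

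**Figure D2:**
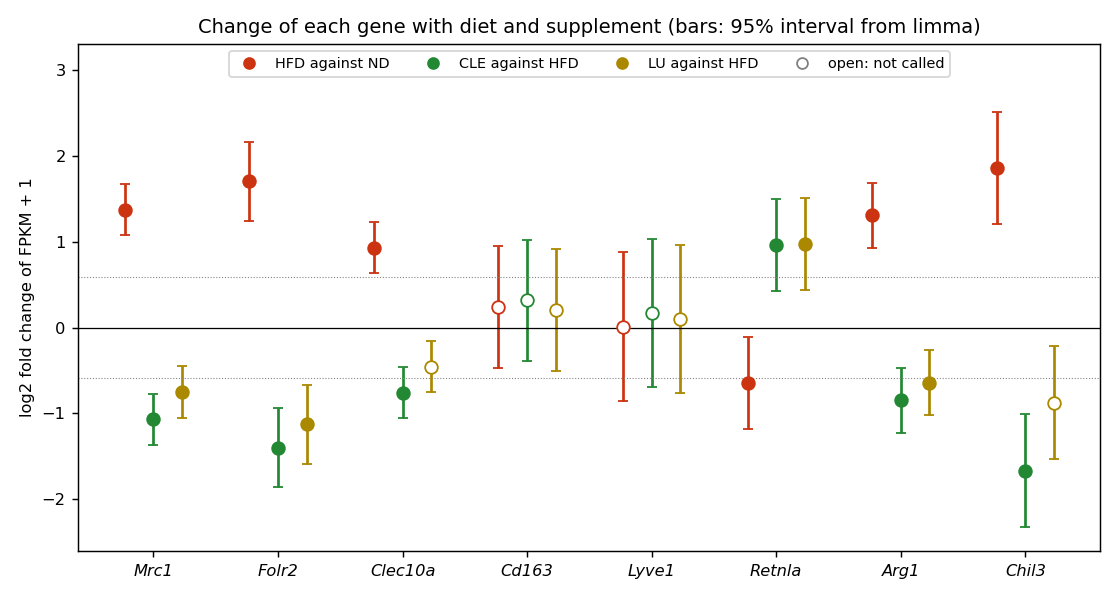
Log2 fold change of FPKM + 1 (y axis) of the 8 genes (x axis) in HFD compared to ND and in CLE and LU compared to HFD, with the 95% interval from limma. Filled points were called, open points were not, and dotted lines mark a fold change of 1.5. Retnla moves opposite to Mrc1, Folr2, Clec10a, Arg1 and Chil3, and the intervals of Cd163 and Lyve1 span 0.

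Retnla, also known as FIZZ1 or RELM-alpha, is a secreted protein of alternatively activated macrophages. It lies on chromosome 16 (chr16:48842551-48844461, plus strand) and was listed as a single transcript. In ND it was at 448, 836 and 554 FPKM and in HFD at 375, 457 and 316 FPKM. It was at 740.5, 845 and 642 FPKM in CLE and at 946, 794 and 549 FPKM in LU. The CLE and LU mice were all above the HFD mice, whereas the lowest ND mouse lay below the highest HFD mouse.

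Retnla was higher by 0.96 ± 0.24 on the log2 scale in CLE (limma adjusted p = 0.0107) and by 0.97 ± 0.24 in LU (adjusted p = 0.0130), both compared to HFD. In HFD compared to ND the change was -0.64 ± 0.24 (adjusted p = 0.0450, exact permutation p = 0.2). That call held by a narrow margin. It was lost when any of ND mice 3 or 4, HFD mice 12 or 18, CLE mice 2 or 4 or LU mouse 3 was left out (-0.40 without ND mouse 3, limma adjusted p = 0.175), and without the 4 libraries with the letter R (-0.24, adjusted p = 0.487). The call in LU was lost without HFD mouse 18 (0.84, adjusted p = 0.0536) and without LU mouse 2 (0.80, adjusted p = 0.0520). The call in CLE held with each of the 12 libraries left out in turn, with values from 0.83 to 1.10.

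Arg1 and Chil3 are 2 further genes classed with alternative activation, and both were low. Arg1, arginase 1, which cleaves arginine to ornithine and urea, lies on chromosome 10 (chr10:24915221-24927484, minus strand). It was at 0.283, 0.197 and 0.139 FPKM in ND and at 1.44, 1.94 and 2.69 FPKM in HFD. It was at 0.459, 0.756 and 0.774 FPKM in CLE and at 0.484, 1.08 and 1.26 FPKM in LU. The HFD mice were above all others, and the ND mice were below all others.

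Arg1 rose by 1.31 ± 0.17 in HFD compared to ND (limma adjusted p = 9.13e-05) and fell by 0.85 ± 0.17 with CLE (adjusted p = 0.00324) and by 0.64 ± 0.17 with LU (adjusted p = 0.0186). Because FPKM + 1 compresses low values, these changes understate the ratio of mean FPKM, which was 9.83 in HFD to ND. The call with LU was lost without HFD mouse 18 (-0.49, adjusted p = 0.0767) and without LU mouse 2 (-0.46, adjusted p = 0.0663). The share of Arg1 FPKM given to an assembled splice form ranged from 0.000855% to 96.5% among libraries.

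Chil3, the chitinase-like protein Ym1, lies on chromosome 3 (chr3:106147554-106167564, minus strand). Its FPKM was 0.139, 0.423 and 0.303 in ND, 2.64, 3.67 and 4.91 in HFD, 0.336, 0.119 and 1.11 in CLE, and 0.909, 1.08 and 3.11 in LU. The HFD mice were above the ND and CLE mice, and LU mouse 8 lay within the HFD range. Chil3 rose by 1.86 ± 0.30 in HFD compared to ND (limma adjusted p = 0.000368) and fell by 1.66 ± 0.30 with CLE (adjusted p = 0.00146). With LU the difference was -0.87 ± 0.30 (adjusted p = 0.0501), just past the limit, and it was called without LU mouse 8 (-1.22, adjusted p = 0.00703), without CLE mouse 11 (adjusted p = 0.0334) and without CLE mouse 4 (adjusted p = 0.0482). The paralog Chil4 was at 0.306 FPKM or less in every library.

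Retnla and Chil3 stood opposite to each other in these mice. The promoters of both hold a palindrome of the kind bound by STAT factors, with a different spacing in each. Whether the palindromes bear on the levels of the 2 genes was not tested. The search used TTCNNNGAA and TTCNNNNGAA, which read the same on either strand, in RefSeq promoters of GRCm38.p6 from 250 bases before to 50 bases after the start site. Promoters were found for 5 of the 8 genes, with 2 for Folr2, and not for Lyve1, Clec10a and Arg1. The palindrome with 4 bases between its arms occurred in the Retnla promoter, beginning 145 bases before the start site, and that with 3 bases in the Chil3 promoter, beginning 172 bases before it. Of 32851 RefSeq promoters, 6.95% held the first and 8.30% the second, and 14.6% held either. Neither was found in the windows of Mrc1, Cd163 and Folr2. Both promoters are shown with the palindrome in capitals (Retnla chr16:48842359-48842658, plus strand, and Chil3 chr3:106167515-106167814, minus strand).
Retnla: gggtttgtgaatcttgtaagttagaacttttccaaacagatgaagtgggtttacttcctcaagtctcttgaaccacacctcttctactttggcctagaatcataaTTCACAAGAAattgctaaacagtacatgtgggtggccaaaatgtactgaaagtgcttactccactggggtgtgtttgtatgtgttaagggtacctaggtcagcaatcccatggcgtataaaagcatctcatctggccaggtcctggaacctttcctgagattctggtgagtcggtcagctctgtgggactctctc
Chil3: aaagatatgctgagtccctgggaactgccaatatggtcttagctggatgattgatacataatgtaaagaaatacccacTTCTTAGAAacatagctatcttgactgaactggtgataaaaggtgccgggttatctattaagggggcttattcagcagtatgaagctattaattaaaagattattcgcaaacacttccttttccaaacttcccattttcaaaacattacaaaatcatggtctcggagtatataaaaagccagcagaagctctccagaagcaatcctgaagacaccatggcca

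The second question is what the supplements did. In CLE compared to HFD, 5 of the 8 genes fell (Mrc1, Folr2, Clec10a, Arg1 and Chil3) and 1 rose (Retnla), against 10.1% of all genes called lower and 6.33% called higher. In LU compared to HFD, 3 fell (Mrc1, Folr2 and Arg1) and 1 rose (Retnla), against 7.64% and 4.81% of all genes. These comparisons and that of HFD with ND share the same 3 HFD mice, so none of them is a repeat of another. In each of them, Arg1 entered the test only through its HFD libraries.

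CLE and LU were also compared directly. By limma, 0 of the 8 genes was called between CLE and LU, and over all genes 0.00783% were called lower in CLE. At an unadjusted p under 0.05 there were 3 of the 8 (Mrc1, Clec10a and Chil3), against 5.26% of all genes. Mrc1 was at -0.32 in CLE compared to LU (95% interval -0.62 to -0.02, limma adjusted p = 0.891), and the CLE and LU mice did not overlap. Clec10a was at -0.30 (-0.60 to -0.01) and Chil3 at -0.79 (-1.45 to -0.14), both with an adjusted p of 0.891. Retnla was at -0.01 (-0.55 to 0.52), an interval within a fold change of 1.5 in both directions. A leaf extract and a single flavonoid given at different doses are not matched, and the intervals of the other 7 genes, with Cd163 at -0.59 to 0.78, Lyve1 at -0.79 to 0.94, Folr2 at -0.73 to 0.19 and Arg1 at -0.59 to 0.17, reach past a fold change of 1.5 in at least 1 direction.

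Compared to ND, 0 of the 8 genes was called in CLE by limma, against 2.91% of all genes, with Mrc1 (0.30) and Arg1 (0.46) at an unadjusted p under 0.05, which 23.3% of all genes reached. In LU, 2 were called higher, Mrc1 at 0.62 ± 0.14 (limma adjusted p = 0.0131) and Arg1 at 0.67 ± 0.17 (adjusted p = 0.0282), against 4.97% of all genes. The Mrc1 call was lost without ND mouse 4 (0.46), without LU mouse 3 (0.56) and without assembled splice forms (0.68, limma adjusted p = 0.0642). The Arg1 call was lost without ND mouse 2, 3 or 4 or LU mouse 3 or 8, where the adjusted p ranged from 0.0581 to 0.115, and without assembled splice forms (0.37, adjusted p = 0.366). Clec10a stayed under the fold limit (0.47, adjusted p = 0.0423) and Chil3 missed the p limit (0.98, adjusted p = 0.0523), but was called without CLE mouse 11 (adjusted p = 0.0339) or LU mouse 2 (adjusted p = 0.0483). Folr2, at 0.58 (adjusted p = 0.0968), was called without ND mouse 3 (0.81, adjusted p = 0.0227).

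Within CLE and within LU, 1 mouse each stood apart in these genes, as was seen after the values were known. CLE mouse 11 had the lowest Mrc1, Folr2, Clec10a, Cd163, Lyve1 and Retnla of its group and the highest Arg1 and Chil3. It also had 43.5 FPKM of Trem2, a receptor of lipid-associated macrophages, against 6.25 and 11.5 FPKM in CLE mice 2 and 4. LU mouse 8 had the lowest Mrc1, Folr2, Cd163, Lyve1 and Retnla of its group, the highest Arg1 and Chil3, and 47.6 FPKM of Trem2 against 21.2 and 16.4 FPKM in LU mice 2 and 3. Some of these ranks were near ties. Clec10a was at 27.8 FPKM in CLE mouse 11 and 28.2 in CLE mouse 2, and Arg1 at 0.774 in CLE mouse 11 and 0.756 in CLE mouse 4. Folr2 was at 38.3 FPKM in LU mouse 8 and 39.9 in LU mouse 3. Without CLE mouse 11, Cd163 was at 0.70 and Lyve1 at 0.64 in CLE compared to HFD, and neither was called.

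The libraries with the letter R differed in some of the same genes. In ND, CLE and LU alike, the mouse with the highest Cd163, the highest Lyve1 and the highest Retnla was an R library (ND mouse 3, CLE mouse 4 and LU mouse 2). The other R library of ND, mouse 4, had the lowest Cd163 of its group and lay between ND mice 2 and 3 in Lyve1 and Retnla. When limma was given the letter as an added term, R libraries were higher by 0.76 ± 0.27 in Lyve1, 0.47 ± 0.17 in Retnla, 0.41 ± 0.14 in Folr2 and 0.50 ± 0.25 in Cd163. None of these passed adjustment (limma adjusted p = 0.99976 for each). Lyve1, Retnla and Folr2 reached an unadjusted p under 0.05 by limma, which 4.11% of all genes reached. Cd163, Mrc1, Clec10a, Arg1 and Chil3 did not reach it. In that fit, Retnla was at -0.33 in HFD compared to ND (adjusted p = 0.255). The 8 libraries without the letter hold 1 ND mouse, which is then assumed to vary like the other groups. Among them, 5 genes were still called higher in HFD compared to ND, from 0.96 in Clec10a to 2.06 in Folr2. There, Retnla was called higher in CLE (0.86, adjusted p = 0.0225) and in LU (0.80, adjusted p = 0.0337) compared to HFD, and the Arg1 call in LU was lost (-0.46, adjusted p = 0.111).

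Genes used to mark macrophages as a whole had a larger median change than the 8 genes. Of 10 such genes, among them Adgre1, which encodes F4/80, and Csf1r, the receptor for colony-stimulating factor 1, 9 rose in HFD compared to ND with a median of 2.44. Only the efferocytosis receptor Mertk, at 0.15, was not called among them. The median was 0.58 over the 6 genes at 1 FPKM or more in all libraries, 1.12 with Arg1 and Chil3, and -0.02 over all genes tested. With CLE, 9 of the 10 fell compared to HFD (median -1.72), and with LU 8 fell (median -1.36). Adgre1 went from 7.34 to 11.5 FPKM in ND to 131 to 164 FPKM in HFD, a change of 3.92 on the log2 scale.

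**Figure D3:**
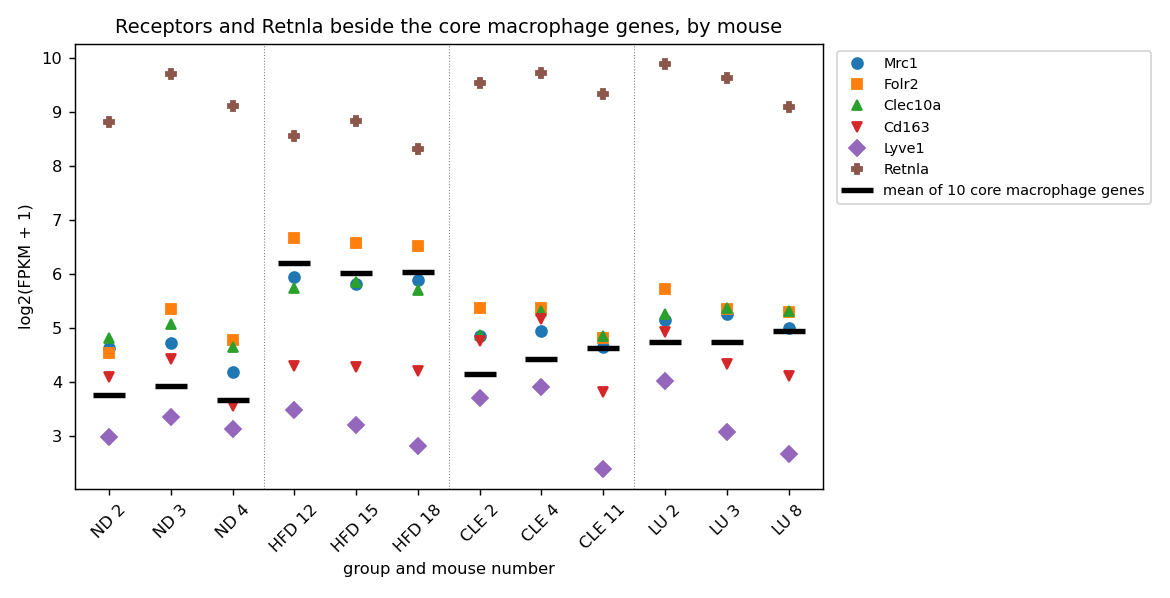
Level of 6 of the genes (coloured symbols) and the mean of the 10 pan-macrophage genes (black bars) in each mouse, as log2(FPKM + 1). Mrc1, Clec10a and Cd163 lie above or near the black bars in ND and below them in HFD, and the lowest Retnla values, 316 and 375 FPKM, belong to HFD mice.

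Set against the mean of these 10 genes in the same library, Mrc1 was 0.87, 0.80 and 0.52 log2 units above it in the ND mice and at -0.26, -0.20 and -0.16, below it, in the HFD mice. Folr2 stayed above that mean in all 12 mice, by 0.77 to 1.43 in ND and by 0.46 to 0.56 in HFD. Retnla was 5.05 to 5.78 above it in ND and 2.26 to 2.82 above it in HFD, with 4.69 to 5.38 in CLE and 4.16 to 5.15 in LU. On this relative scale 7 of the 8 genes were called lower in HFD compared to ND, but so were 96.9% of all genes tested, because the reference itself rose by 2.31. A call on the relative scale is therefore not by itself a trait of the 8 genes. Compared to HFD, 6 were called higher on it with CLE, beside 95.8% of all genes, and 5 with LU, beside 93.7%.

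Other genes of resident macrophages also divided into those that rose and those that were not called. Of 18 listed, 16 were tested, 6 rose in HFD compared to ND (Vsig4, Hmox1, Ccl8, Stab1, Selenop and Pf4), 0 were called lower, and the median was 0.37. Vsig4, a complement receptor, went from 0.477, 0.487 and 0.608 FPKM in ND to 3.89, 3.75 and 3.38 FPKM in HFD and was at 0.916 FPKM or less in all CLE and LU mice. Hmox1, the heme-degrading oxygenase, rose by 2.07 and fell by 1.35 with CLE and by 1.08 with LU. Stab1, a scavenger receptor, rose by 0.91 and fell by 0.65 with CLE and 0.60 with LU.

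Cd209d, Cd209f, Cd209g, Fcna, Igf1, Slc40a1, Cbr2, Gas6, F13a1 and Maf were not called in HFD compared to ND. Fcna, a ficolin, was at 8.05, 13.5 and 9.71 FPKM in ND, 13.4, 12.8 and 9.09 in HFD, 19.6, 19.8 and 5.495 in CLE, and 18.2, 11.7 and 7.77 in LU, a pattern near that of Lyve1 and Cd163. Timd4 and Cd5l failed the filter and were at 1.26 and 0.925 FPKM or less. With CLE 6 of the 16 fell compared to HFD and with LU 3 fell, with medians of -0.42 and -0.21.

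Genes listed as targets of interleukin 4 and STAT6 moved in both directions. Which cells of the bulk tissue made their RNA was not tested. Of 14 listed, 11 were tested, 5 rose in HFD compared to ND (Egr2, Fn1, Ear2, Tgm2 and Ccl22) and 3 fell (Irf4, Cish and Klf4), with a median of 0.13. Irf4, a transcription factor of both macrophages and adipocytes, was at 46.1, 22.3 and 16.9 FPKM in ND and at 3.03 to 3.47 FPKM in HFD, a fall of 2.65. It did not pass the test in CLE (0.21) or LU (0.30) compared to HFD, unlike Klf4, a transcription factor that acts with STAT6, which rose by 0.82 in CLE and 0.60 in LU. Whether these changes differ was not tested. Egr2 rose from 0.467 to 0.666 FPKM in ND to 11.7 to 19.0 FPKM in HFD and changed by -2.23 with CLE and by -1.801 with LU. The chemokine Ccl17 and the ligand Pdcd1lg2 were at 0.601 and 0.161 FPKM or less.

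Of 18 type 2 cytokines, receptors and transducers, 16 were tested and 5 rose in HFD compared to ND (Il10ra, Il10rb, Il1rl1, Il13ra1 and Stat6), with a median of 0.33. Il4 was at 1.59 to 2.44 FPKM in all 12 mice and was not called in any comparison, while Il13 and Il10 failed the filter at 0.110 and 0.701 FPKM or less. Stat6 was at 44.0, 47.8 and 52.8 FPKM in ND and at 73.9, 71.3 and 77.6 FPKM in HFD, a change of 0.62. Il4ra, the receptor shared by interleukin 4 and interleukin 13, was at -0.22 (limma adjusted p = 0.170). In CLE compared to HFD, Il10ra and Il10rb fell and Il34, a ligand of the receptor encoded by Csf1r, rose by 0.64, and in LU only Il10ra was called (-0.94).

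Arg1 sits in the pathway of arginine metabolism, in which 1 other gene was called. Of 8 genes of arginine metabolism, 7 were tested and Ass1, argininosuccinate synthase, was the 1 called higher in HFD compared to ND (2.26, limma adjusted p = 0.000404). Nos2, the inducible nitric oxide synthase that competes with arginase for arginine, was at 1.85 to 4.51 FPKM in all mice and was not called. Arg2 was at 0.605 FPKM or less. Compared to HFD the 7 genes passed no call in CLE or LU, and the smallest adjusted p was that of Slc7a2, an arginine transporter, at -0.49 in CLE (limma adjusted p = 0.0105) and -0.56 in LU (adjusted p = 0.00747), under the fold limit.

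Most genes of lipid-associated macrophages and of classical activation also rose in HFD compared to ND, with Lpl and Nos2 as the tested genes that were not called. Of 8 lipid-associated genes, 7 rose in HFD compared to ND (median 4.07) and 6 fell with CLE and with LU (medians -2.61 and -2.00). Gpnmb, a lysosomal glycoprotein, went from 3.2998 to 5.54 FPKM in ND to 412 to 541 FPKM in HFD. Of 6 tested genes of classical activation, 5 rose (median 0.84), led by Itgax at 4.76 and Ccl2 at 2.31. Tnf rose by 0.83, while Il1b, Il6, Il12b and Ptgs2 failed the filter.

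Several of the 8 genes are also used by other cells, whose markers were read in the same libraries. Lyve1 is carried by lymphatic endothelium, and the summed FPKM of 6 lymphatic genes was 12.8 to 27.0 in ND, 15.7 to 19.4 in HFD, 12.99 to 18.8 in CLE and 13.2 to 22.6 in LU. The lymphatic regulator Prox1 was at 0.826 FPKM or less, and 1 of 5 tested genes, Pdpn, which other stromal cells also carry, rose in HFD. Clec10a is carried by some dendritic cells, whose 6 markers summed to 25.8 to 29.5 FPKM in ND and 19.8 to 23.9 in HFD, with Clec9a called higher and Itgae lower. Most of that sum was Zbtb46, at a mean of 17.5 FPKM in ND and 11.2 FPKM in HFD (-0.58, limma adjusted p = 0.0244, under the fold limit), while Flt3 was at 0.56 (adjusted p = 0.00136), also under it. The part of lymphatic and dendritic cells in the values of Lyve1 and Clec10a was not tested.

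Chil3 and Arg1 are found in neutrophils and monocytes. The 8 neutrophil markers summed to 6.34 to 14.9 FPKM in ND and 70.3 to 119 in HFD, almost all of it S100a8, which other myeloid cells make. Of the 2 neutrophil genes that were tested, S100a8 was called higher in HFD and its partner S100a9 lower (-0.79, limma adjusted p = 0.0299), at 1.27, 2.31 and 0.678 FPKM in ND and at 0, 0.471 and 0.671 FPKM in HFD. The defining markers Ly6g, Camp and Ngp were at 0 or at most 0.412 FPKM. Of 4 monocyte markers, 2 rose in HFD (Ccr2 by 1.60 and Plac8 by 0.71), and their sum was 21.3 to 32.0 FPKM in ND and 48.2 to 65.8 in HFD. The part of neutrophils and monocytes in the rise of Chil3 and Arg1 was not tested. Arg1 is also a liver enzyme, and the 7 liver markers summed to 15.9 to 35.3 FPKM in ND and 2.64 to 11.9 in HFD. Alb made up much of that sum, Alb and Serpina1a were called lower in HFD, and Apoa1, Apoa2 and Ttr were not called. The part of liver RNA in Arg1 was not tested. The 5 eosinophil markers were under 1 FPKM in every library. Of 4 epididymal genes Lcn5 was at 0 in all and Crisp1 reached 5.13 FPKM in ND mouse 4. The 5 adipocyte genes were all called in HFD compared to ND, 4 lower (Adipoq, Plin1, Cidec and Fabp4) and leptin, Lep, higher. Their summed FPKM was 25210.8 to 26766.9 in ND, 15146.2 to 17062.6 in HFD, 22444.6 to 24083.4 in CLE and 20996.5 to 26003.9 in LU. Compared to HFD, 4 were called higher and 1 lower in CLE, and 2 higher and 1 lower in LU. Retnla also had its lowest group mean in HFD. The part of adipocytes or other cells in the values of Retnla was not tested.

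The patterns of the 8 genes over the 12 libraries were compared with each other and with all genes tested, as the root mean square of the difference between deviations of log2(FPKM + 1) from each gene's mean. Among the 8, Mrc1 and Clec10a lay closest (0.20), then Mrc1 with Folr2 (0.26), Mrc1 with Arg1 (0.26) and Clec10a with Arg1 (0.26), and Cd163 lay closest to Lyve1 (0.28). Retnla and Chil3 lay farthest apart (1.18), and Retnla was closest to Cd163 (0.45). The genes nearest to Mrc1 were Col1a2, a collagen chain (0.12), Slc9a9 (0.13) and Tnfrsf13b (0.15). Nearest to Clec10a were Selenop, the selenium carrier (0.11), Asah1 (0.14) and Fam49b (0.14), and nearest to Folr2 were Fn1, fibronectin (0.17), Qpct (0.18) and Prune2 (0.18).

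Nearest to Lyve1 were Fcna (0.14) and the lectins Cd209f (0.23) and Cd209b (0.25), and nearest to Cd163 were Abca6 (0.26), Fcna (0.27) and Upb1 (0.27). Nearest to Retnla were Htra4 (0.19), Hist1h4h (0.22) and Hspb8, a small heat shock protein (0.23). Nearest to Arg1 were Incenp (0.16), Cln3 (0.16) and Mthfd2 (0.17), and nearest to Chil3 were Cstb, the protease inhibitor cystatin B (0.22), Oxtr (0.23) and Gas2l2 (0.23).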

How the data were processed

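Total RNA of eWAT was extracted and sequenced by the authors as paired-end reads of 100 bases. The submitters' processing notes name CASAVA 1.8.2, TopHat2 2.0.12, Bowtie2 2.2.3 and Cufflinks 2.2.1. The authors deposited FPKM per transcript, already normalized for length and library size, in 152210 rows and 15 FPKM columns, of which 3 match no sample and were not used. Columns of the authors' own calls between groups were not used either. A column headed MD4 was taken to be ND mouse 4 by inference, and the CLE columns carry another abbreviation and were assigned through the diet in the labels.

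Annotated transcripts and their assembled splice forms were summed to 22947 genes, and 9326 rows of other assembled transcripts were left out. Transcripts not found in the GENCODE M21 annotation, and their splice forms, were left out as well. All rows left out together held 65.8% to 92.9% of a column's total. Of 78786 annotated transcripts, 77000 were found in GENCODE M21 (GRCm38), whose gene coordinates are given. Reads could not be recovered from the FPKM values, since at most 28.0% of the values of low genes lay within 0.1 of a whole multiple, so the depth is unknown and the count test the study names could not be run.

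The log2(FPKM + 1) of 12775 genes, each at 1 FPKM or more in 3 libraries or more, entered limma 3.58.1 (R 4.3.3), with 4 groups and 12 libraries in 1 fit and Benjamini-Hochberg adjustment within each of 6 comparisons. A call needed a fold change over 1.5 together with an adjusted p under 0.05. The fit was tested on simulated data. Each limma p-value set a difference of group means against the spread between mice within groups, pooled over 4 groups and moderated over all genes. The 8 genes and all gene lists were chosen with earlier results of these data known. Named genes were all 8 genes, the 3 tested genes nearest in pattern to each, and genes of the lists. Alternatives were another pseudocount, other filters, scalings, weights and gene values, smaller sets of libraries, the letter R, and the replicate block. Promoters came from RefSeq.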

Additional observations from a re-analysis of the deposited data

How the results depend on the processing

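Depth is unknown, 3 mice a group leave wide intervals for Cd163 and Lyve1, and Arg1 and Chil3 lie near the filter on low values. In HFD compared to ND and in CLE compared to HFD, the calls of Mrc1, Folr2 and Clec10a kept their direction and their side of the limits in every alternative except the scale relative to the core macrophage list, and those of Arg1 and Chil3 did so too, except that a filter on a mean of 5 FPKM removed both genes, leaving 3 genes higher in HFD compared to ND and 3 lower in CLE compared to HFD. The count called lower in HFD compared to ND, which was Retnla alone, was 0 with a pseudocount of 0.1, no filter, median ratios, only the groups compared, the letter R as covariate, without the libraries with the letter R, the transcript with the highest mean and without assembled splice forms, and 0 to 1 with 1 library left out. The count lower in LU compared to HFD, 3, ranged from 2 to 4 over the alternatives other than the relative scale, and with 1 library left out. There Arg1 was lost without a filter (limma adjusted p = 0.0624), with the letter R as covariate (-0.58, under the fold limit) and without the libraries with the letter R (adjusted p = 0.111), and Chil3 was called with equal totals, median ratios, quantile normalization, a trend in the moderation and array weights (adjusted p = 0.0211 to 0.0497). The count higher in LU compared to HFD was 0 without a filter and 0 to 1 with 1 library left out. The count higher in LU compared to ND was 1 without a filter, with a filter on a mean of 5 FPKM and with array weights, 0 with quantile normalization, only the groups compared, without the letter R and without assembled splice forms, and 0 to 3 with 1 library left out.

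Fold changes that were never called crossed 0 in some settings. Retnla in CLE compared to LU was at 0.010 with equal totals, 0.020 with median ratios, 0.0059 with array weights, 0.062 without the letter R, and -0.23 to 0.16 with 1 library left out. Lyve1 in HFD compared to ND was at -0.058 with quantile normalization, -0.015 with array weights and -0.15 to 0.19 with 1 library left out. With the letter R as covariate Lyve1 was at -0.083 in CLE and -0.16 in LU compared to HFD, and without those libraries at -0.12 and -0.29, with -0.10 in LU compared to ND. Cd163 in LU compared to HFD was at -0.034 without the letter R and -0.090 with the transcript with the highest mean. With 1 library left out, Lyve1 ranged from -0.12 to 0.64 in CLE and -0.29 to 0.39 in LU compared to HFD, from -0.22 to 0.54 in CLE compared to LU, from -0.11 to 0.65 in CLE and -0.28 to 0.40 in LU compared to ND. Cd163 ranged from -0.18 to 0.50 in CLE compared to LU and from -0.034 to 0.38 in LU compared to HFD, and Chil3 from -0.069 to 0.39 in CLE compared to ND. The cause was not tested.

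Relative to the core macrophage list most genes shift with the reference, so the share of all genes is given beside each count. In HFD compared to ND, 0 were higher and 7 lower (96.9% of all genes lower). Compared to HFD, 6 were higher and 0 lower in CLE (95.8% higher), and 5 higher and 0 lower in LU (93.7% higher). In LU compared to ND, 0 were higher and 2 lower, where 90% of all genes were called lower. On this relative scale, HFD compared to ND was at -0.94 in Mrc1, -2.07 in Cd163, -2.30 in Lyve1, -0.60 in Folr2, -1.38 in Clec10a, -1.002 in Arg1 and -0.45 in Chil3. CLE compared to HFD was at 0.62 in Mrc1, 0.29 in Folr2, 0.93 in Clec10a, 0.84 in Arg1 and 0.022 in Chil3, and LU compared to HFD at 0.53, 0.16, 0.83, 0.64 and 0.41 in the same genes. CLE compared to LU was at 0.084 in Mrc1, 0.13 in Folr2, 0.10 in Clec10a, 0.39 in Retnla and 0.20 in Arg1. CLE compared to ND was at -0.32 in Mrc1, -0.070 in Cd163, -0.44 in Lyve1, -0.32 in Folr2, -0.45 in Clec10a, -0.31 in Retnla, -0.16 in Arg1 and -0.43 in Chil3, and LU compared to ND at -0.40, -0.59, -0.92, -0.45, -0.56, -0.70, -0.36 and -0.042 in the same genes.

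Mouse number 2 recurs in ND, CLE and LU, number 3 in ND and LU, and number 4 in ND and CLE. Samples that share a number had deviations correlated at -0.10 to 0.19. Pairs with different numbers were not set beside them, so whether they share more than a number was not tested. With the replicate block (mouse number, 9 libraries), the count higher in LU compared to ND was 0, with Mrc1 at 0.60 (limma adjusted p = 0.113) and Arg1 at 0.54 (adjusted p = 0.162), and Chil3 in CLE compared to ND was at -0.0059. HFD shares no number with the other groups, so no block could be fitted for it.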
